A study of Mus musculus with 4 samples.

Results

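The clustered protocadherins are cell-surface adhesion proteins of the cadherin superfamily, encoded in the mouse by 3 neighbouring gene clusters named alpha, beta and gamma on chromosome 18. Their genes were taken by name from the tables: every gene named Pcdha plus a number or c, Pcdhb plus a number, or Pcdhga, Pcdhgb or Pcdhgc plus a number. This gave 58 genes under 57 names, with 89 transcripts, out of 51905 genes and 128603 transcripts in all. The alpha cluster held 14 of them, the beta cluster 22 and the gamma cluster 22, all on the forward strand. The name Pcdha11 is carried by 2 gene entries, ENSMUSG00000007440 starting at 37005203 and ENSMUSG00000102206 starting at 37010712, called the upstream and the downstream Pcdha11 entry below. RefSeq, on the same build (GRCm38), places a gene named Pcdha10 at 37005320 to 37187657, within the upstream entry.

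RNA was sequenced from the brains of wild-type mice of 4 groups, with 1 library per group made from the pooled left hemispheres of 5 mice. B6 is the inbred laboratory strain C57BL/6, and CAST is CAST/EiJ, an inbred strain derived from wild Mus musculus castaneus. F1i and F1r are the hybrids of both crosses, labelled C57BL/6 x CAST/EiJ and CAST/EiJ x C57BL/6, and the labels do not say which parent was the mother. Because every group is 1 library, differences between groups carry neither error nor test. Estimated depth relative to B6 was 0.725 for CAST, 0.822 for F1i and 0.723 for F1r, and the median tested member had 286.5 to 421.5 estimated fragments. For alpha and gamma genes these fragments include those from exons that the whole cluster shares, which do not identify a single gene. Age and sex are not stated, and the series design speaks of whole brain where the protocol names hemispheres.

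Neurons are known to switch on a small, largely random choice of these genes from each cluster, and the proteins recognise identical copies on other membranes. This gives a neuron a surface identity by which its own branches avoid one another. In the alpha and gamma clusters each gene contributes 1 large variable exon, which encodes the extracellular, transmembrane and first cytoplasmic parts and is spliced to constant exons shared by the whole cluster. Beta genes consist of a single coding exon with no shared end. The 5 C-type genes at the ends of the alpha and gamma clusters (Pcdhac1, Pcdhac2, Pcdhgc3, Pcdhgc4 and Pcdhgc5) are known for broad rather than random expression. Promoter choice depends on the DNA-binding protein CTCF and the cohesin ring that folds the locus.

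Values are FPKM, fragments scaled to transcript length and to mapped fragments, summed over the transcripts of a gene, so levels are per length and can be set side by side between genes. In GRCm38 the alpha genes spanned positions 36930184 to 37187661, the beta genes 37264938 to 37524479 and the gamma genes 37661793 to 37841873. The constant exons made up 2860 bases of an alpha transcript and 2119 bases of a gamma transcript. Variable exons were 2346 to 3028 bases long in the alpha cluster and 2499 to 2961 in the gamma cluster. A median of 63.6% of the 31-base words of an alpha transcript recurred in another annotated gene, against 11.8% in the beta and 47.4% in the gamma cluster. For the first exon alone the medians were 21.6% in the alpha and 4.86% in the gamma cluster, and all 5 C-type first exons were at 0%. Fragments from the constant exons can be assigned to any member, and the values of single alpha and gamma genes are uncertain to that extent. Pcdha4 is the most uncertain, with 96.2% of its first exon shared, since the annotated gene Gm42416, listed at 0 in all 4 libraries, covers 2410 bases of it on the same strand.

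In deposited FPKM, the totals of the 3 clusters were close in the 4 libraries. The alpha sum was 30.2 FPKM for B6, 33.9 for CAST, 30.8 for F1i and 34.4 for F1r. The beta sum was 44.9, 40.1, 40.9 and 44.1 FPKM in the same order, and the gamma sum was 104, 104, 99.8 and 112. In each cluster the highest library exceeded the lowest by a factor of 1.12 to 1.14. The CAST minus B6 difference of the sums was 0.16 (alpha), -0.16 (beta) and -0.00 (gamma) on the log2 scale. It became 0.49, 0.17 and 0.34 after rescaling to a common total, and the F1r minus F1i difference became 0.42, 0.37 and 0.43, while the median over all genes moved to 0.34 and 0.27. All members together came to 179 FPKM for B6, 178 for CAST, 171 for F1i and 190 for F1r.

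Levels differed far more between members than between libraries. Of the 5 C-type genes, 4 had the highest means of all members. Pcdhgc5 was the highest member in every library, at 23.5 FPKM for B6, 29.8 for CAST, 24.3 for F1i and 29.5 for F1r, high in CAST and F1r and low in B6 and F1i. Pcdhgc3 came next at 16.7, 17.2, 18.4 and 18.1 FPKM, and Pcdhac2 followed at 10.9, 10.3, 11.4 and 11.3. These lay within a factor of 1.10 across the libraries and kept the ranks after Pcdhgc5 in each. Pcdhgc4 was at 5.43, 6.13, 6.26 and 7.04 FPKM, lowest in B6, where Pcdhgb6 was above it, and highest in F1r. Pcdhac1, the remaining C-type gene, stood apart from these at 1.86, 1.74, 1.54 and 1.94 FPKM, a level like those of the numbered alpha genes around it.

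**Figure D1:**
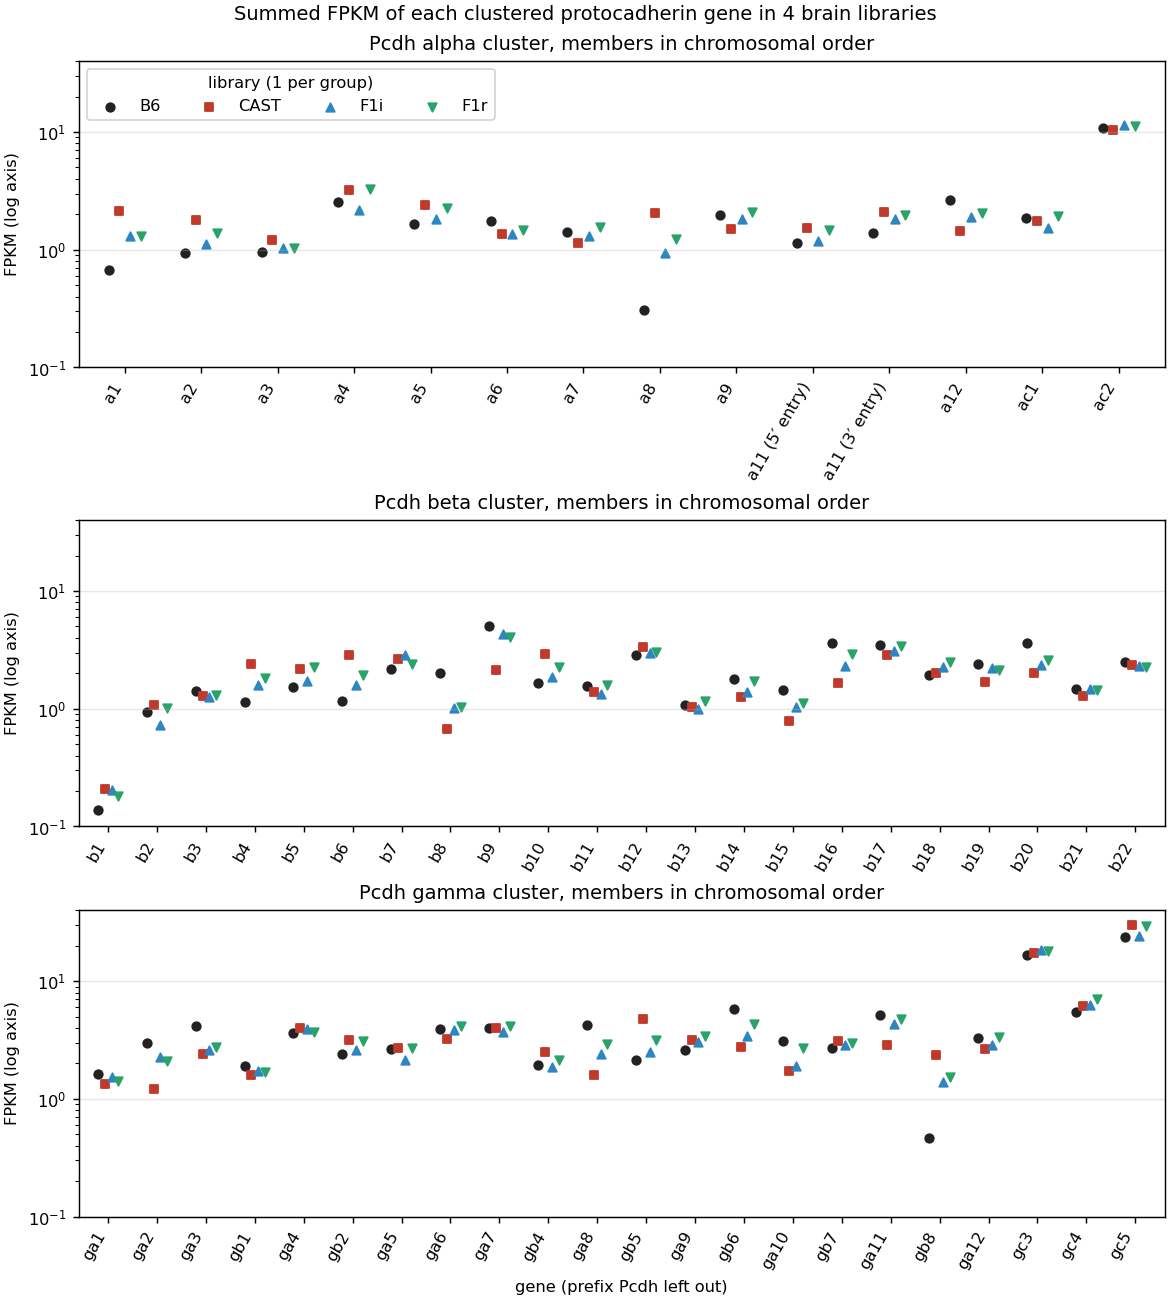
FPKM of each gene in the 4 libraries on a log axis, with 1 panel per cluster and genes in chromosomal order; each point is 1 library and there are no error bars. The C-type genes at the right of the alpha and gamma panels reach up to 29.8 FPKM (Pcdhgc5 in CAST), except Pcdhac1 at 1.54 to 1.94, and Pcdhb1 is lowest at 0.138 to 0.209.

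Among the numbered alpha genes, the highest by mean were Pcdha4 (2.56 FPKM for B6, 3.20 for CAST, 2.19 for F1i and 3.28 for F1r) and Pcdha5 (1.67, 2.38, 1.84 and 2.25). Both were higher in CAST and F1r than in B6 and F1i. In Pcdha4 the rise from B6 to CAST lies in a retained-intron transcript, at 0.754 FPKM for B6 and 1.86 for CAST. Its protein-coding transcripts were lower in CAST, at 0.992 and 0.812 FPKM for B6 and 0.948 and 0.395 for CAST. Pcdha3 had the lowest mean of the cluster, at 0.952, 1.21, 1.04 and 1.03 FPKM.

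Beta genes had no member far above the rest. Pcdhb9 had the highest mean and was at 5.05 FPKM for B6, 2.13 for CAST, 4.32 for F1i and 4.08 for F1r, so that it was the first beta gene in B6 and both hybrids but not in CAST, where Pcdhb12 led at 3.36. Pcdhb17 (3.51, 2.88, 3.10 and 3.38 FPKM) and Pcdhb12 (2.85, 3.36, 2.98 and 3.04) differed little. Pcdhb1 was the lowest of all members at 0.138, 0.209, 0.204 and 0.181 FPKM, which corresponds to an estimated 14 to 18 fragments per library. Together with Pcdhb2, at 0.723 to 1.07 FPKM, it had a mean under 1 FPKM and was left out of the counts that follow, which cover the other 56 members.

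Gamma genes outside the C-type ranged in mean from 1.43 FPKM (Pcdhgb8) to 4.27 (Pcdhga11). The 12 gamma A genes summed to 41.3 FPKM for B6, 30.8 for CAST, 34.5 for F1i and 38.2 for F1r, and the 7 gamma B genes to 17.4, 20.3, 16.4 and 18.9. As a share of the gamma sum, which does not change with the scaling of a library, the gamma A genes made up 39.6% for B6, 29.5% for CAST, 34.6% for F1i and 34.2% for F1r. Both hybrids lay between the strains and near each other. The 3 gamma C-type genes made up 43.7%, 51.0%, 49.0% and 48.9%, lowest in B6, while the gamma B share was 16.7%, 19.5%, 16.4% and 16.9%. In the alpha cluster the C-type genes went the other way, with 42.3% for B6, 35.7% for CAST, 42.0% for F1i and 38.5% for F1r.

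**Figure D2:**
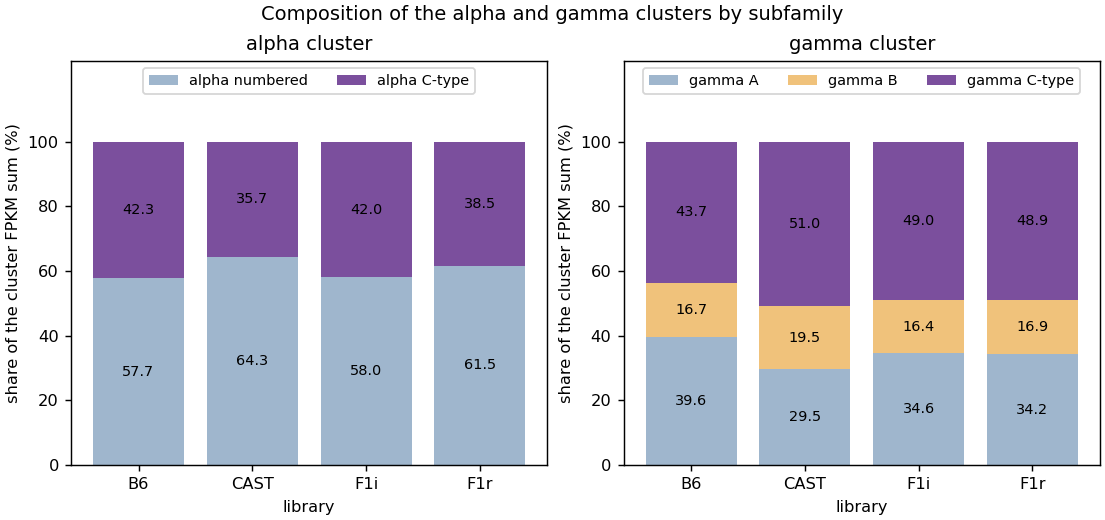
Share of the cluster FPKM sum (%) held by each subfamily in the 4 libraries, as stacked bars for the alpha and the gamma cluster, 1 library per bar. The gamma A share is 39.6% in B6 and 29.5% in CAST with both hybrids between them, and the C-type share is lower in CAST than in B6 in the alpha cluster and higher in the gamma cluster.

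CAST and B6 were set side by side for the difference between the strains. Differences are given as the difference in log2(FPKM + 1), a scale that shrinks the differences of low genes, and genes 2-fold or more apart on it were counted. Of the 56 members, 2 were higher and 1 was lower in CAST. This is 5.36% of members, beside 5.12% of all 13768 genes with a mean of at least 1 FPKM, where 2.85% were higher and 2.27% lower. After rescaling each library to a common total FPKM, 5 members were higher and 0 lower, which is 8.93% of members beside 5.62% of all genes. With protein-coding transcripts only, 1 was higher and 1 lower of 53 members (3.77%), beside 2.90% of all genes, as Pcdhgb8 then had a mean of 0.552 FPKM and was not tested. The median difference over members was -0.04, beside 0.04 over all genes, and the standard deviation over genes was 0.51 beside 0.57. The median absolute difference was in the other order, at 0.243 over members beside 0.199 over all genes. Among genes with a mean from 1 to 5 FPKM the gap was smaller, at 0.266 over 52 members beside 0.253 over all genes. In bulk tissue, fewer cells that express a gene and less RNA per cell cannot be told apart. Whether reads that carry CAST sequence were lost or moved between near-identical members was not tested.

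Pcdha8 was at 0.310 FPKM for B6, 2.05 for CAST, 0.940 for F1i and 1.24 for F1r, a CAST minus B6 difference of 1.22. B6 was far below the other libraries, with an estimated 70 fragments against 335 in CAST, constant exons included, and 31.7% of the first exon is shared with other genes. Pcdhgb8, annotated in part as a polymorphic pseudogene, was at 0.466, 2.34, 1.40 and 1.54 FPKM, a difference of 1.19, again with B6 lowest. Pcdhga8 was at 4.26, 1.59, 2.42 and 2.93 FPKM, a difference of -1.02, with B6 highest. In all 3 genes both hybrids lay between the strains.

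At the level of most members, the added 1 weighs heavily. With 0.1 added in its place, 12 of 56 members (21.4%) were at least 2-fold apart, beside 7.76% of all genes. That share depends on the level, and among the 4576 genes with a mean from 1 to 5 FPKM it was 14.1%. These genes hold 52 of the 56 members, and all 12 members that far apart are among the 52. The 12 were 6 higher and 6 lower in CAST, with 2 in the alpha, 5 in the beta and 5 in the gamma cluster. Each has its highest library at least 2 times its lowest, and no other tested member does. Pcdhb6 and Pcdhb8 reached 2-fold only with a short transcript included, as given below. At the other end, 15 members had a highest library under 1.25 times the lowest, Pcdhac2, Pcdhgc3, Pcdhga4 and Pcdhb22 among them.

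Higher in CAST on this scale, beside Pcdha8 and Pcdhgb8, was Pcdha1, the first gene of its cluster, at 0.666 FPKM for B6, 2.12 for CAST, 1.31 for F1i and 1.30 for F1r. Pcdhb4 was at 1.14, 2.41, 1.59 and 1.83 FPKM. Pcdhb6 was at 1.16, 2.84, 1.60 and 1.94 FPKM. In these 3 genes CAST was the highest library and B6 the lowest, with the hybrids apart from both. Without its 681-base transcript, at 0 FPKM for B6 and 0.458 for CAST, Pcdhb6 fell just short of 2-fold. Pcdhgb5 was at 2.13, 4.81, 2.51 and 3.18 FPKM, with CAST well above the other libraries and F1i close to B6.

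Lower in CAST, beside Pcdhga8, was Pcdhb9, with the values given above, where both hybrids were closer to B6. Pcdhb8 was at 2.001 FPKM for B6, 0.678 for CAST, 1.01 for F1i and 1.04 for F1r, with both hybrids closer to CAST. Without its 462-base transcript, at 0.595 FPKM for B6 and 0 for CAST, Pcdhb8 fell just short of 2-fold. Pcdhb16 was at 3.62, 1.66, 2.30 and 2.89 FPKM. Pcdhga2 was at 2.98, 1.22, 2.29 and 2.08 FPKM, and Pcdhgb6 at 5.80, 2.74, 3.39 and 4.30. B6 was the highest library in each of these genes and CAST the lowest. First exons of the 12 genes shared from 3.89% (Pcdhga2) to 31.7% (Pcdha8) of their words with other genes, and the values of those with a large share are uncertain.

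**Figure D3:**
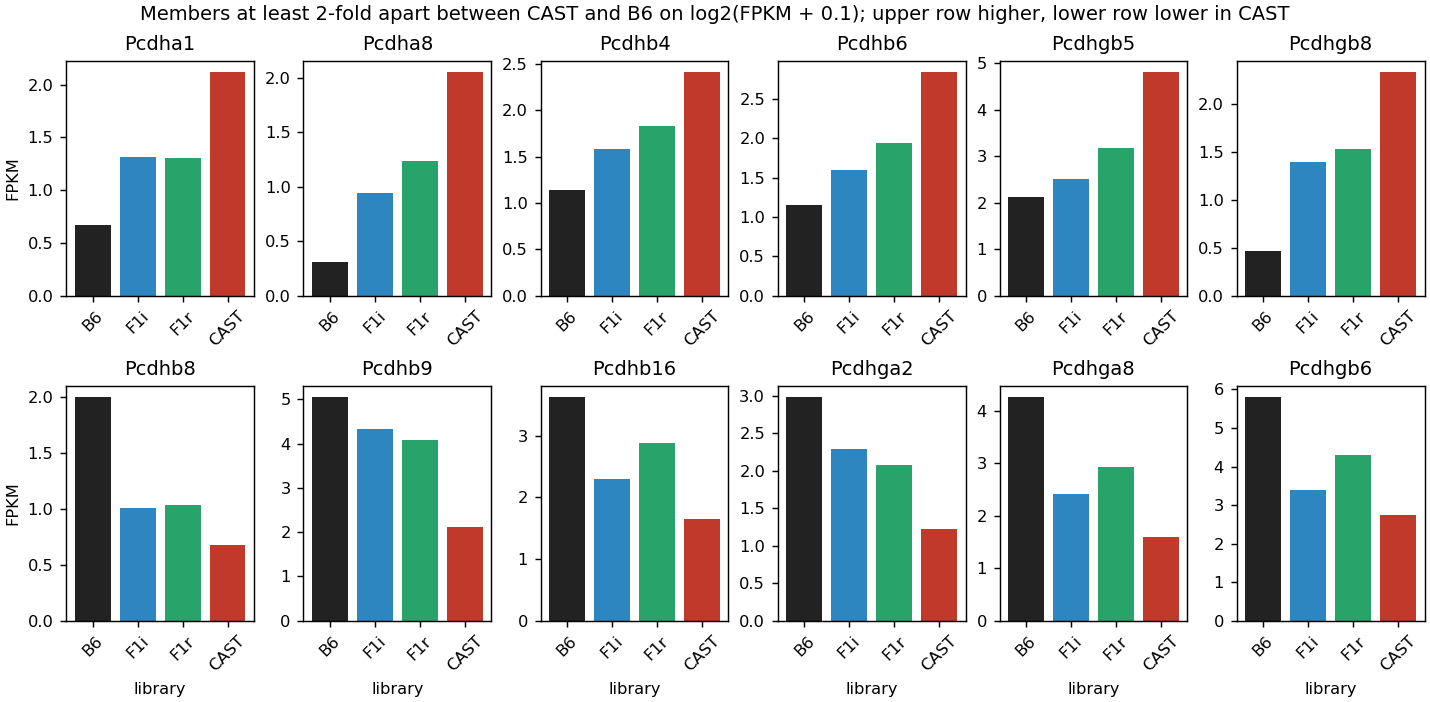
FPKM in B6, F1i, F1r and CAST, 1 bar per library and no error bars, for the 12 members at least 2-fold apart between CAST and B6 on log2(FPKM + 0.1); 6 are higher in CAST (upper row) and 6 lower (lower row). In each panel both hybrid bars lie between the bars of the strains.

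Within the clusters, members differed in both directions side by side. Of the 12 gamma A genes, 9 were lower and 3 higher in value in CAST, with a median difference of -0.22. Of the 7 gamma B genes, 5 were higher and 2 lower, with a median of 0.24, and the 3 gamma C-type genes were higher, from 0.04 to 0.33, though 1 of them was below 0 after median-ratio scaling. This split was looked at after the values were seen. The order of the subfamily medians was the same after median-ratio scaling (-0.26 in gamma A and 0.20 in gamma B), and after rescaling to a common total FPKM (0.04 and 0.48). The latter moved the median of all genes to 0.34 and turned the sign of the gamma A median, but 10 of 12 gamma A genes were below the all-gene median under each of the 3 scalings. Other gamma A genes include Pcdhga3 (4.13 FPKM for B6, 2.38 for CAST, 2.59 for F1i and 2.78 for F1r), Pcdhga10 (3.11, 1.72, 1.90 and 2.71) and Pcdhga11 (5.15, 2.85, 4.31 and 4.78). B6 was the highest library in these 3 genes as well. Pcdhga7 (4.02, 3.97, 3.69 and 4.12 FPKM) and Pcdhga5 (2.64, 2.70, 2.15 and 2.73) were alike in the strains.

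In the beta cluster the last 9 genes, Pcdhb14 to Pcdhb22, had a median difference of -0.31, with 8 lower in value in CAST and Pcdhb18 at 0.04. The 11 tested genes before them, Pcdhb3 to Pcdhb13, had a median of 0.18, with 6 higher and 5 lower. The boundary was set after the values were seen. Pcdhb20 (3.59 FPKM for B6, 2.03 for CAST, 2.34 for F1i and 2.59 for F1r) and Pcdhb15 (1.44, 0.784, 1.03 and 1.12) followed Pcdhb16 in size. Pcdhb10 lay opposite at 1.64, 2.92, 1.87 and 2.25 FPKM. After rescaling to a common total, 5 of the last 9 genes were below 0 and 9 below the median of all genes. After median-ratio scaling 9 were below 0 and 8 below that median. Of the 12 numbered alpha entries, 8 were higher and 4 lower in value in CAST, with a median of 0.24. Among the 8, Pcdha4 and the downstream Pcdha11 entry were higher only through retained-intron transcripts. With protein-coding transcripts only, the CAST minus B6 difference of the alpha sum was 0.07 in place of 0.16. Pcdha12 was lowest in CAST (2.66 FPKM for B6, 1.43 for CAST, 1.91 for F1i and 2.06 for F1r). The upstream Pcdha11 entry (1.14, 1.52, 1.20 and 1.48) and the downstream one (1.38, 2.10, 1.81 and 1.96) were both higher in CAST than in B6. In the downstream entry the rise lies in retained-intron transcripts, at 0.461 and 0.470 FPKM for B6 and 1.46 and 0.632 for CAST. Its only protein-coding transcript above 0 was at 0.444 FPKM for B6 and 0.0022 for CAST.

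**Figure D4:**
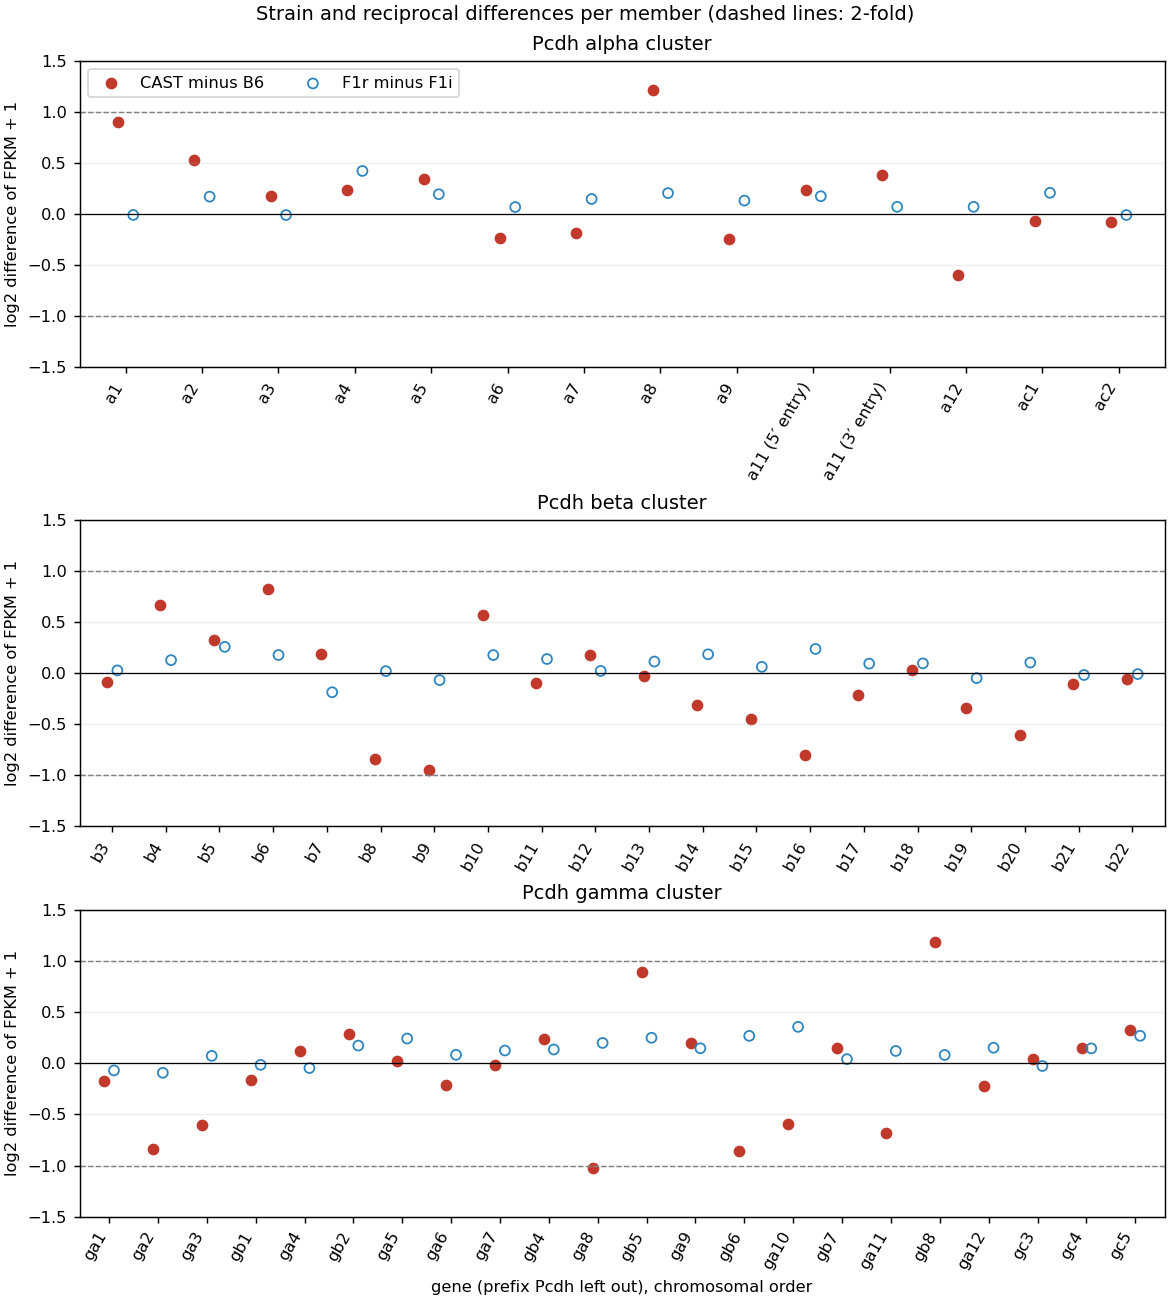
Log2 difference of FPKM + 1 for the 56 tested members in chromosomal order, with CAST minus B6 as filled and F1r minus F1i as open circles, and dashed lines at 2-fold; each point rests on 1 library per group. Strain differences run from -1.02 (Pcdhga8) to 1.22 (Pcdha8), and reciprocal differences from -0.19 to 0.42.

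Both hybrids were set beside the strains to ask whether their levels were intermediate. In 35 of 56 members (62.5%) both hybrids lay strictly between B6 and CAST, beside 41.2% of all genes. The alpha cluster had 9 of 14, the beta cluster 12 of 20 and the gamma cluster 14 of 22 such genes. Of the 5 C-type genes, only Pcdhgc5 was among them. With B6 set to 0 and CAST to 1, the 12 members at least 2-fold apart with 0.1 added had a median position of 0.420 in F1i (0.145 to 0.787) and 0.494 in F1r (0.330 to 0.729), beside 0.495 and 0.504 over all genes that far apart. Pcdhgb5 in F1i (0.145) was closest to B6 and Pcdhgb6 in F1i (0.787) closest to CAST. The strains both chose these members and set the scale, so that a middle position follows in part from the choice.

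Against the mean of the strains, the mean of the hybrids was at least 2-fold apart in 0 of 56 members, beside 0.167% of all genes, and the members lay within -0.21 (Pcdhgb5) and 0.19 (Pcdhb18). With 0.1 added the count was also 0. Pcdhb18 was above both strains in both hybrids, at 1.93 FPKM for B6, 2.002 for CAST, 2.27 for F1i and 2.50 for F1r. Among C-type genes, Pcdhgc3, Pcdhgc4 and Pcdhac2 were likewise higher in value in both hybrids than in either strain, by at most 0.17 between the means. These comparisons share their strain libraries with that of CAST against B6.

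The reciprocal hybrids carry 1 copy of chromosome 18 from each strain, and F1r against F1i shows how far apart 2 such libraries lie. No member was 2-fold apart, beside 0.508% of all genes, and none was with 0.1 added. The standard deviation over members was 0.12, beside 0.28 over all genes, where values ran from -9.67 to 5.50. The median absolute difference went the other way, at 0.124 over members beside 0.104 over all genes. That order depends on the level. Among genes with a mean from 1 to 5 FPKM, it was 0.124 over the 52 members and 0.136 over all genes. In 49 of 56 members (87.5%) the strain difference was larger than the reciprocal one, beside 69.9% of all genes. F1r was higher in value in 43 members (76.8%), beside 58.1% of all genes, with a median difference of 0.12 beside 0.03. The median was 0.14 in the alpha, 0.10 in the beta and 0.13 in the gamma cluster. After median-ratio scaling, F1r was higher in 41 of 56 members beside 46.6% of all genes, and the median was 0.085 beside -0.013. After rescaling to a common total, F1r was higher in 56 of 56 members beside 92.5% of all genes, and the median was 0.30 beside 0.27. In the beta cluster it was then 0.27, the same as over all genes at this precision. The largest reciprocal differences were those of Pcdha4 (0.42) and Pcdhga10 (0.36). The Pcdha4 gap lies mainly in its retained-intron transcript, at 1.10 FPKM for F1i and 2.03 for F1r. Gm26672, at 0.483 to 0.724 FPKM, overlaps 2613 bases of Pcdhga10 on the opposite strand, and parts of Pcdhga11, Pcdhga12 and Pcdhgb7. Whether counting used strand is not known. On the other side was Pcdhb7 (2.19 FPKM for B6, 2.65 for CAST, 2.88 for F1i and 2.41 for F1r), a difference of -0.19 that became 0.01 with a common total.

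The tables split genes into annotated transcripts. Those with the full constant region held 81.2% of the alpha sum for B6, 75.2% for CAST, 80.6% for F1i and 75.4% for F1r, and alpha transcripts with an additional exon a further 13.3%, 13.1%, 10.7% and 13.0%. In the gamma cluster, transcripts with 3 constant exons, some of them truncated, held 92.4%, 91.3%, 92.6% and 91.1%. Transcripts with no constant exon held 4.03%, 9.82%, 7.70% and 10.3% of the alpha sum and 7.37%, 8.27%, 7.16% and 8.72% of the gamma sum. In the alpha cluster this class was lowest in B6 and consists of 1 transcript each of Pcdha4 and the downstream Pcdha11 entry, both annotated as retained introns. Pcdhgc5 was split into its full-length transcript of 4741 bases, at 19.7 FPKM for B6, 24.7 for CAST, 21.7 for F1i and 23.3 for F1r, and a 593-base one at 3.59, 3.50, 2.16 and 5.61. Most of the gap between F1i and F1r in the Pcdhgc5 sum lies in this 593-base transcript. Of the 89 transcripts, 6 were listed at 0 in all libraries.

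The split between transcripts varied widely in 3 genes picked after their values were seen. Pcdhga1 was steady in sum, at 1.63 FPKM for B6, 1.33 for CAST, 1.53 for F1i and 1.41 for F1r. Its 4692-base transcript with the constant region was at 1.41, 0.372, 0.958 and 0.576 FPKM, and its single-exon transcript of 3247 bases at 0.216, 0.960, 0.569 and 0.834. The former led in B6 and F1i, and the latter in CAST and F1r. Pcdha6 held 81.8% of its FPKM in the 4653-base transcript in B6, against 38.7% in CAST, 9.88% in F1i and 34.5% in F1r. Pcdhgb8 held 97.7% of its FPKM in the transcript annotated as a polymorphic pseudogene for B6, 46.9% for CAST, 40.6% for F1i and 91.8% for F1r. The hybrids differed from each other in Pcdhgb8 about as much as the strains did. The error of these splits was not tested.

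**Figure D5:**
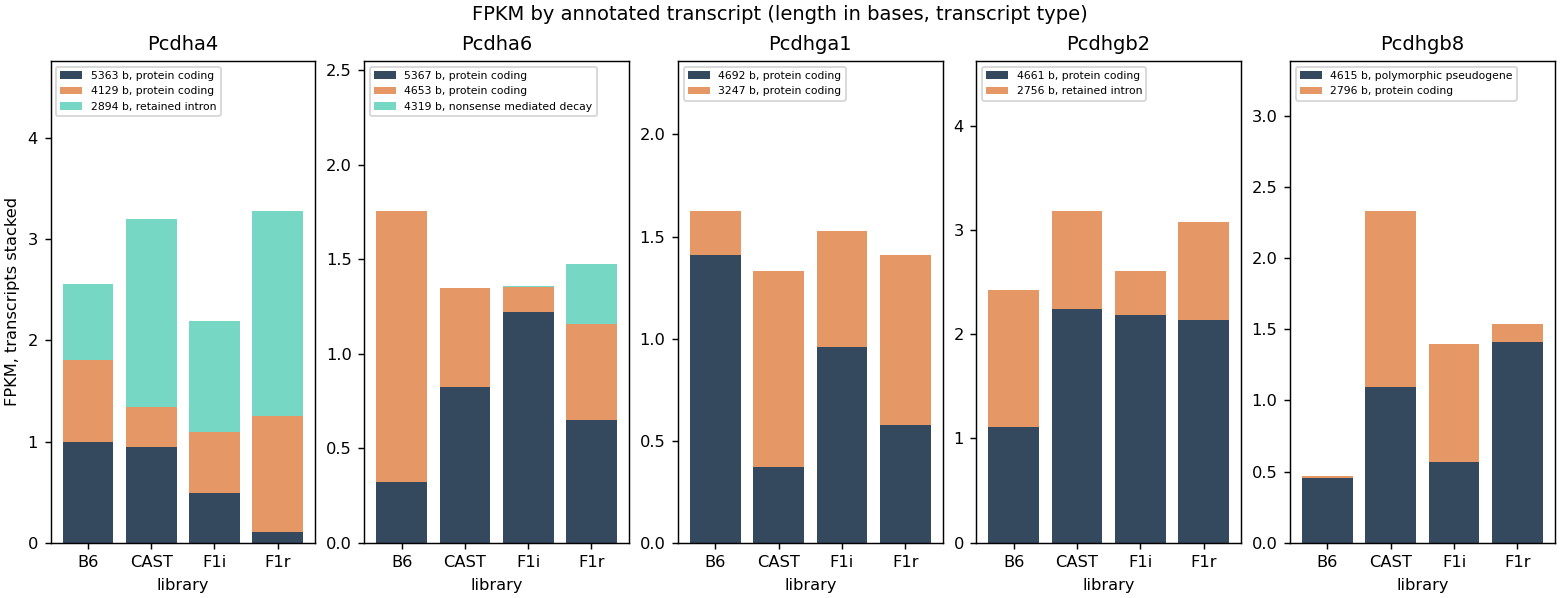
FPKM of the annotated transcripts of 5 genes, stacked, with 1 bar per library and no error bars; lengths are in bases. The sums of Pcdhga1 stay between 1.33 and 1.63 while its 4692-base transcript goes from 1.41 in B6 to 0.372 in CAST, and in Pcdhgb8 the pseudogene transcript holds 97.7% in B6 and 40.6% in F1i.

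Of 16 listed regulators of the clusters 14 were tested, and 0 were 2-fold apart in any of the 3 comparisons. Ctcf and Rad21 are given for their role. Ctcf was at 13.4 FPKM for B6, 14.3 for CAST, 13.2 for F1i and 14.03 for F1r. The cohesin subunit Rad21 was at 21.8, 22.9, 21.9 and 22.7 FPKM, and Smchd1, a chromatin protein that represses the clusters, at 6.74, 8.87, 7.04 and 7.97. The largest strain difference in this list was that of the DNA methyltransferase Dnmt3a (8.89, 12.4, 11.6 and 12.2 FPKM, a difference of 0.44), with B6 below the rest. Of 20 binding and signalling partners 0 were 2-fold apart, the median strain difference was 0.01, and the largest was that of Cyfip2 (0.26), a subunit of the actin-regulating WAVE complex. The non-clustered protocadherins, single genes outside the 3 clusters, had a median of 0.21 with 0 of 11 tested genes past 2-fold. Pcdh8 (8.98, 12.4, 10.4 and 11.1 FPKM) and Pcdh20 (10.3, 13.1, 11.7 and 11.7) had the largest differences. Of 15 listed genes beside the clusters on the chromosome 11 were tested, with a median of -0.05 and none past 2-fold, and Ik was the farthest apart (29.3, 19.7, 24.3 and 24.2 FPKM).

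Markers of cell types moved as follows beside these results. Pan-neuronal markers summed to 2106, 2017, 2127 and 2181 FPKM in B6, CAST, F1i and F1r, with a median strain difference of -0.10 and 0 of 10 past 2-fold. Oligodendrocyte markers summed to 2192, 1318, 1811 and 1660 FPKM. All 8 were lower in value in CAST, with a median of -0.89, and Mobp, Cldn11 and Mal, 3 of 8, were past 2-fold. Choroid plexus markers (649.7, 398, 656 and 549 FPKM) were lower in value in CAST too, with Kl, 1 of 7, past 2-fold. Microglial markers summed to 117, 81.3, 101 and 87.3 FPKM with 0 of 7 past 2-fold, 6 below 0 and P2ry12 at 0.28. Astrocyte, endothelial and olfactory bulb markers had medians of -0.05, 0.14 and -0.30 with none past 2-fold, and among 7 cerebellar markers 1 was higher (Gabra6) and 1 lower (Car8) in CAST. Nasal mucosa markers summed to 17.4, 40.6, 5.59 and 9.10 FPKM, with Bpifb4 and Cyp2a5, 2 of 4 tested genes, higher in CAST, and these and Scgb1c1 lower in the hybrids than in the strains. The part of these cell types in the protocadherin differences was not tested. Serotonergic neurons, known to depend on Pcdhac2, had markers summing to 18.2, 16.6, 23.5 and 14.6 FPKM, with a median F1r minus F1i difference of -0.61 and Slc6a4 past 2-fold, while Pcdhac2 differed by -0.01 between the hybrids.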

How the data were processed

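The 4 deposited tables give FPKM per annotated transcript, 1 table per library. The submitters' processing notes name bcl2fastq 2.20, Trimmomatic 0.36, HISAT2, Cufflinks 2.2.1 and Cuffdiff and the build mm9. However, all 89 member transcripts have the start and end of GENCODE M21 on GRCm38, so coordinates are given on GRCm38. The library kit keeps strand, per the labels' protocols. Whether counting used strand, and which genome CAST reads were aligned to, is not given in the sources used here.

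FPKM of transcripts of at least 200 bases were summed per gene ID with Python 3.11.15, numpy 2.4.6 and pandas 2.3.3, and drawn with matplotlib 3.10.9. Genes with a mean of at least 1 FPKM over the 4 libraries were compared as log2(FPKM + 1): CAST minus B6, F1r minus F1i, and the mean of the hybrids minus that of the strains. With 1 library per group, each pooled from 5 mice, no test was made, and counts of genes at least 2-fold apart are set beside the same share of all genes. Depth was estimated from the smallest steps of FPKM times length in genes with 1 transcript of 3 to 5 kb, and it covers counting error only. Shared sequence was counted as 31-base words found in transcripts of other genes. The scripts were tested on simulated data.

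Members and gene lists were chosen with earlier results of these data known. Members described singly are the C-type genes, the 3 highest and the lowest of each cluster by mean, and those at least 2-fold apart. Of the lists, genes 2-fold apart and the 3 largest differences may be named. Others named were chosen after their values were seen. Alternatives were a pseudocount of 0.1, no filter, a minimum mean of 5 FPKM, median-ratio scaling, a common total FPKM, transcripts under 200 bases included, protein-coding transcripts only and, for shares, FPKM times length.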

Additional observations from a re-analysis of the deposited data

How the results depend on the processing

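Of the alternative values, 111 kept their direction and side of the 2-fold threshold or moved by less than the spread used to judge them, and 10 did not. Many of the 111 could not change. Cluster sums and single-gene differences do not depend on the filter on the mean, and no member transcript is under 200 bases. The count of members at least 2-fold apart between CAST and B6 was 3, and became 12 with a pseudocount of 0.1, 5 with a common total FPKM, 2 with protein-coding transcripts only, where Pcdhgb8 was not tested, and 0 with a minimum mean of 5 FPKM, where only 4 members were tested and no position between the strains could be computed. With a common total FPKM, the CAST minus B6 difference of the cluster sums went from 0.16 to 0.49 (alpha), from -0.16 to 0.17 (beta) and from -0.00 to 0.34 (gamma). That scaling moved the median of all genes to 0.34. Under it Pcdhga8 went from -1.02 to -0.78, short of 2-fold, and the median F1i position of the members 2-fold apart from 0.498 to 0.277. The C-type share of the alpha sum, 39.6% as a mean of the libraries, was 44.0% for FPKM times length and 43.8% for protein-coding transcripts only. The lowest estimated support of a tested member was 67 fragments (Pcdhb15 in CAST). No paired analysis was possible because each group has 1 library.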
